A study of Mus musculus with 2 samples.

Results

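The HOX cluster genes were examined in the femoral cartilage of E17.5 mice that lack *Tric-b*, a line with the strain labels C57BL/6J and 129Sv in which the gene of the endoplasmic reticulum channel TRIC-B is disrupted. Members were all probe sets that the platform annotation assigned to a single gene whose symbol is Hoxa, Hoxb, Hoxc or Hoxd followed by a number from 1 to 13. This rule gave 48 probe sets of 33 genes, among 34945 singly annotated probe sets of 18193 genes, and the RefSeq gene table lists 39 such genes. The other 6 were not analysed here. The 2 arrays held RNA of the cartilage section enriched with round chondrocytes and of the section with columnar and hypertrophic chondrocytes, called the round-zone and columnar-zone arrays here, and each RNA mixed 3 preparations by the submitters' design. Both groups carried the knockout, wild-type cartilage was not analysed here, and with 1 array per zone no difference below has a replicate check or a p-value.

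HOX genes encode homeodomain transcription factors that set positional identity along the body axis and along the limb. They lie in 4 clusters, *Hoxa* to *Hoxd*, and genes with the same number form a paralogue group with closely related homeodomains. In the limb the 5′ genes of the *Hoxa* and *Hoxd* clusters act in successive segments. In the hindlimb, group 10 is needed for the proximal segment that contains the femur, group 11 for the segment below the knee and group 13 for the foot. *Hoxc* genes of the posterior groups are used in the hindlimb, whereas *Hoxb* genes are best known from the axial skeleton, the neural tube and blood cells.

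The values were array signals on a linear scale, with trimmed means of 497 in the round zone and 496 in the columnar-zone array. The 40th percentile of all signals, 65.9, served as a floor, and a signal under it was not distinguished from background. A signal was compared between the arrays, or with the floor, and not with the signal of another probe set. Signals were also summed over the genes of a list within each array, and such sums weight genes by the brightness of their probe sets. Differences are log2 signals of the columnar-zone array minus those of the round-zone array, so a negative value is a higher signal in the round-zone array. The only spread available was that between probe sets of the same gene, whose log2 differences had a pooled SD of 0.34 over 5446 genes and of 0.41 among those of low signal. Variation between animals or preparations is not part of it. Cartilage markers were present, as all 7 cartilage genes examined were above the floor in both arrays. None differed by 2-fold, and neither did 10125 of all 11163 genes above the floor in both arrays. Of 4 hypertrophic genes measured, 3 were above the floor in the columnar-zone array and 0 in the round-zone array. Among them *Col10a1* had signals of 55.2 in the round zone and 25421 in the columnar-zone array, whereas *Mmp13* was under the floor in both. Of 6 genes of round or joint-end cells, 5 were at least 2-fold higher in the round-zone array, against 6.25% of all genes. Among these, *Creb5* was compared only through its round-zone signal of 345, as its columnar-zone signal of 2.61 was under the floor. Of all genes above the floor in both arrays, 5.46% were at least 2-fold higher in the round-zone array. *Sfrp5* lay at 0.08, and the median of the 6 was -1.80. These genes moved in the direction of most HOX genes, and their part in the HOX differences was not tested. The zones differed in *Gdf5*, a joint growth factor gene, with signals of 949 in the round zone and 296 in the columnar-zone array, and in *Pth1r*, the parathyroid hormone receptor gene of prehypertrophic cells, with signals of 2049 and 14397.

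In the round-zone array 18 of the 33 HOX genes were above the floor, or 54.5%, against 66.5% of all genes. In the columnar-zone array 17 were above it, or 51.5%, against 65% of all genes. The clusters differed in how many of their genes were above the floor. In the *Hoxc* cluster 6 of 7 genes were above the floor in both arrays (85.7%), and in the *Hoxa* cluster 7 of 9 (77.8%). Of all 18193 genes, 11163 were above it in both arrays. In the *Hoxb* cluster only *Hoxb2* and *Hoxb3* of 9 genes were above it, and in the *Hoxd* cluster 3 of 8 genes in the round-zone array. By position, 5 of 10 genes of groups 1 to 4, 6 of 9 genes of groups 5 to 8 and 7 of 14 genes of groups 9 to 13 were above the floor in the round-zone array. None of the 4 measured group 13 genes passed it, among them *Hoxa13* and *Hoxd13*, which act in the foot. The 15 genes under the floor in both arrays were *Hoxa4*, *Hoxa13*, *Hoxb1*, *Hoxb4*, *Hoxb5*, *Hoxb6*, *Hoxb7*, *Hoxb9*, *Hoxb13*, *Hoxc13*, *Hoxd1*, *Hoxd3*, *Hoxd11*, *Hoxd12* and *Hoxd13*, with signals from 4.09 to 56.7 in the round-zone array and from 2.70 to 56.2 in the columnar-zone array. A signal under the floor does not show that a gene is silent.

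**Figure D1:**
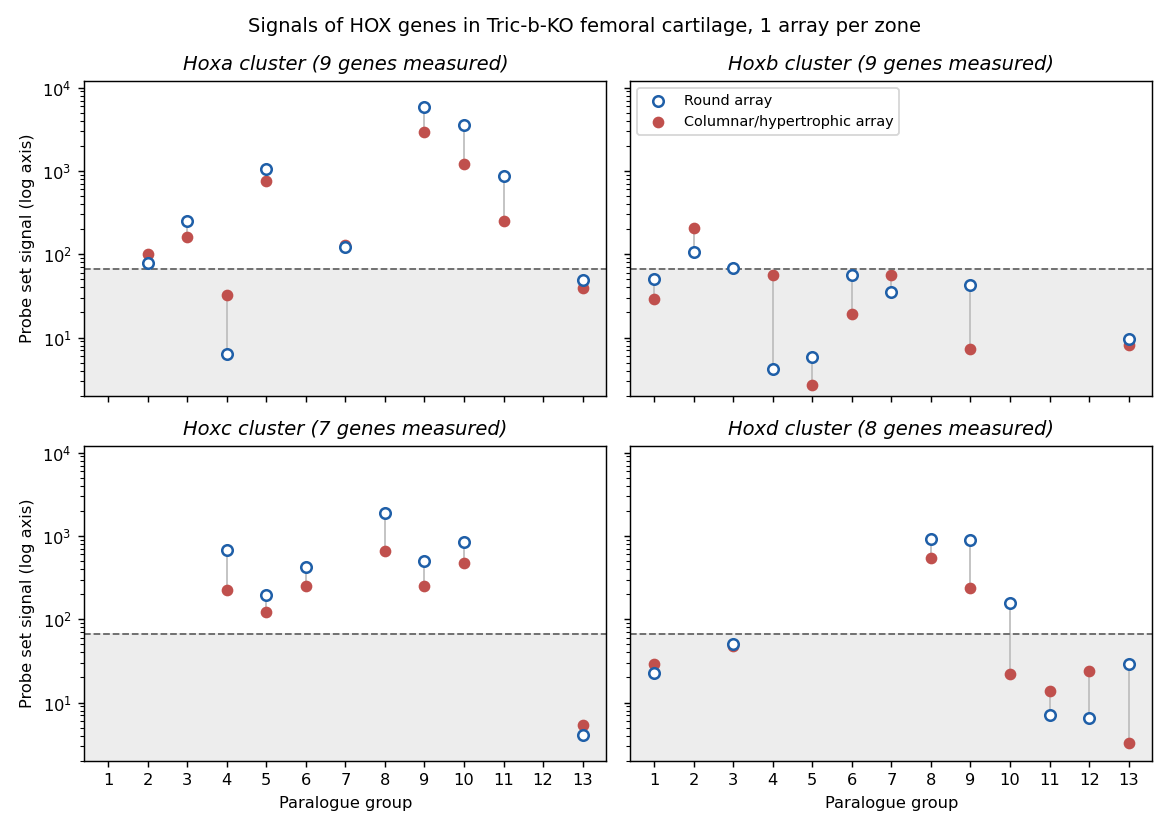
Signals (log axis) of the 33 measured HOX genes by cluster and paralogue group, in the round-zone array (open circles) and the columnar-zone array (filled circles), 1 array per zone, each gene by 1 probe set. The floor of 65.9 is dashed, with the range under it shaded. Genes of groups 8 to 10 in the *Hoxa*, *Hoxc* and *Hoxd* clusters lie above the floor in the round-zone array, and 7 of 9 *Hoxb* genes and all group 13 genes lie under it in both arrays.

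Of the 14 group 9 to 13 genes measured, 7 were under the floor in both arrays. The 7 compared all had higher signals in the round-zone array, where 53.2% of all genes compared did. Of these 7 genes, 5 differed by at least 2-fold, as 6.25% of all genes did in that direction. *Hoxd9* gave the largest difference among HOX genes above the floor in both arrays, with signals of 905 in the round zone and 239 in the columnar-zone array, 3.79-fold apart (log2 difference -1.92). Its neighbour *Hoxd10* had a signal of 158 in the round-zone array and lay under the floor at 22.1 in the columnar-zone array, which makes it at least 2.40-fold higher in the round-zone array. *Hoxa10*, a gene needed for femur patterning, had signals of 3594 and 1205 on its brighter probe set, a log2 difference of -1.58. Its second probe set gave 195 and 54.8, the latter under the floor, and a bound of -1.57. Both probe sets of *Hoxa10* were thus higher in the round-zone array, the second by at least 2.96-fold.

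*Hoxa11*, whose known limb role is in the segment below the knee, was detected in these femoral sections, with signals of 859 and 252 in the round-zone and columnar-zone arrays (log2 difference -1.77). *Hoxa9* had signals of 5814 and 2944 on one probe set and 1703 and 942 on the other, with log2 differences of -0.98 and -0.85. It stayed just under 2-fold as deposited, and passed it after quantile normalization and after lowess centring. *Hoxc9* lay just past 2-fold, with signals of 506 and 251 (-1.01), and fell under it in these alternatives and when differences were centred on their median. *Hoxc10*, a hindlimb gene, had signals of 854 and 474, a log2 difference of -0.85. The median over the 7 genes was the bound of *Hoxd10* and so lay at or below -1.26, and over the 6 genes above the floor in both arrays it was -1.30.

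Because several neighbouring genes moved together, the 250 bases before their RefSeq start sites (GRCm38.p6) were read. The table held 21 such windows for 19 of the 33 genes, with none for *Hoxc8* and *Hoxc9*. Shown are the adjacent *Hoxd9* (chr2:74697513-74697762, plus strand) and *Hoxd10* (chr2:74691641-74691890, plus strand), both annotated starts of *Hoxa10* (chr6:52240855-52241104 and chr6:52234940-52235189, minus strand), and *Hoxa2* (chr6:52164832-52165081, minus strand), the window with the most matches, whose gene was higher in the columnar-zone array by about the SD between probe sets. Capitals mark, on either strand, the motifs TTTATNG (the type bound by CDX and posterior HOX proteins), TGATTNAT (HOX with PBX), TGACAG (MEIS), CCAAT and TATAAA, so that ATTGG and TTTATA are matches on the reverse strand. No marked motifs overlapped in these windows, although in *Hoxa2* TGACAG directly abuts CCAAT.
Hoxd9: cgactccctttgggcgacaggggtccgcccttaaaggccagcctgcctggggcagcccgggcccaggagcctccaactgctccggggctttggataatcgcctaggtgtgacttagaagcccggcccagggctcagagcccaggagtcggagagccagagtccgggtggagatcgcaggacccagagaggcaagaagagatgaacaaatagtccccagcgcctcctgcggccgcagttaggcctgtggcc
Hoxd10: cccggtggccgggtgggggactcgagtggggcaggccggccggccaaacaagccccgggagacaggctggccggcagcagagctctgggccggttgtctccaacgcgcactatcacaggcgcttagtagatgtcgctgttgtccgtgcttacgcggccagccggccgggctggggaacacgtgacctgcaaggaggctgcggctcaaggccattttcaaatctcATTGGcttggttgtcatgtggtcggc
Hoxa10, start farther 5′: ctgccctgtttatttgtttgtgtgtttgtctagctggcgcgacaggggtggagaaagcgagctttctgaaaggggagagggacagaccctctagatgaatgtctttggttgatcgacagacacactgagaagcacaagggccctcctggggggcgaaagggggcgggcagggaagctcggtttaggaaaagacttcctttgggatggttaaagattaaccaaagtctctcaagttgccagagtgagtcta
Hoxa10, start farther 3′: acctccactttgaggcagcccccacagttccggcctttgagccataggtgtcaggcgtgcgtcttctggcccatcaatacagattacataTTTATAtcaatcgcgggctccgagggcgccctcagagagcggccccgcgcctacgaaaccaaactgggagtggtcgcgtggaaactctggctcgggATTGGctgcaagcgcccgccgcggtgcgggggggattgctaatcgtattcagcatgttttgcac
Hoxa2: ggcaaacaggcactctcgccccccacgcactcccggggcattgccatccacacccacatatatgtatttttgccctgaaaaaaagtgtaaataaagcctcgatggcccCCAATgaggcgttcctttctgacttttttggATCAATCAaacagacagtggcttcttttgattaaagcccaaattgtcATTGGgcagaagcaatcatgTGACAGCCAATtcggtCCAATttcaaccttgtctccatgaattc
The *Hoxd9* window and the 5′ window of *Hoxa10* held none of the 5 motifs, and *Hoxd10* held a single CCAAT. The *Hoxa2* window held 6 matches, among them TGATTNAT and TGACAG. The window of *Hoxa7*, also on the columnar side, held 0 matches, and that of *Hoxa3*, on the round side, held TGACAG. Over the 21 HOX windows, CCAAT was found in 11, against 33.8% of 32851 windows of all genes. TTTATNG was found in 0 and in 9.81% of all windows, TGATTNAT in 2 and in 2.82%, TGACAG in 2 and in 15.9%, and TATAAA in 2 and in 12.4%. HOX windows held a median of 13 CpG dinucleotides and all windows a median of 6. Which start the probe sets of *Hoxa10* report on is not known here, and a match is a description of the letters only.

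Genes of groups 5 to 8 also lay mostly on the round side, in 5 of 6 genes compared, against 53.2% of all genes compared. Their median log2 difference was -0.72. *Hoxc8*, a regulator of axial pattern, had signals of 1861 in the round zone and 667 in the columnar-zone array and was the only gene of these groups at least 2-fold apart (log2 difference -1.48). *Hoxd8* had signals of 911 and 545 on its brighter probe set, or 1.67-fold apart. Its second probe set gave 403 and 112, or 3.59-fold. Both probe sets of *Hoxd8* were higher in the round-zone array, but they disagreed on whether the difference passes 2-fold. *Hoxc6* had signals of 419 and 250 on one probe set and 372 and 213 on another, with log2 differences of -0.74 and -0.80. The last probe set of *Hoxc6* went the other way, from 12.9, under the floor, in the round-zone array to 90.3 in the columnar-zone array, a bound of 0.45. *Hoxc6* was the only HOX gene whose compared probe sets differed in sign.

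*Hoxc5* had signals of 198 and 121 in the round-zone and columnar-zone arrays (-0.71), and its other 2 probe sets were under the floor in both. *Hoxa5*, known for roles in lung and in the cervical and thoracic skeleton, had signals of 1047 and 755 on one probe set and 355 and 265 on the other. Its log2 differences of -0.47 and -0.42 were somewhat above the SD of 0.34 between probe sets of the same gene. *Hoxa7* had signals of 120 and 129, a log2 difference of 0.10 that is smaller than this SD.

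Groups 1 to 4, which pattern the head and neck, showed no common direction. *Hoxc4* stood apart from the others, with signals of 678 in the round zone and 225 in the columnar-zone array, 3.02-fold apart (-1.59). *Hoxa3* had signals of 249 and 160 on its brightest probe set, 199 and 163 on the next, and 156 and 51.7, the latter under the floor, on another, with log2 differences of -0.64, -0.29 and a bound of -1.24. All 3 lay on the round side, and its last probe set was under the floor in both arrays. In the RefSeq table the extent of *Hoxa3* overlaps those of *Hoxa4*, *Hoxa5* and *Hoxa6*, and the positions of the probes were not known here.

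The 2 group 2 genes measured were the main exception to the round side. *Hoxb2*, which patterns the hindbrain, had signals of 106 and 208 (log2 difference 0.97), the highest value of any HOX gene, and *Hoxa2*, the selector gene of the second branchial arch, had signals of 79.0 and 102 (0.36). These signals were under 4 times the floor. *Hoxb3*, at 68.8 and 68.5, lay barely above the floor, with a log2 difference of -0.01 as deposited, and its sign turned under median centring, quantile normalization and lowess centring. The median of the 5 genes compared in groups 1 to 4 was -0.01 and turned its sign under the same alternatives, and also, to 0.18, with the floor lowered to the 20th percentile or removed.

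Over all positions, 15 of 18 HOX genes compared (83.3%) had a higher signal in the round-zone array, against 53.2% of all 12761 genes compared. At least 2-fold higher there were 7 (38.9%), against 6.25% of all genes. None was at least 2-fold higher in the columnar-zone array, where 4.28% of all genes were. Under each of median centring, quantile normalization and lowess centring, 14 of the 18 were on the round side and *Hoxb2* passed 2-fold on the columnar side. The 7 were *Hoxa10*, *Hoxa11*, *Hoxc4*, *Hoxc8*, *Hoxc9*, *Hoxd9* and *Hoxd10*. The median log2 difference was -0.80 over HOX genes and -0.04 over all genes. As *Hoxd10* was compared only through its signal in the round-zone array, the count was also taken over genes above the floor in both arrays. There 14 of 17 HOX genes had a higher signal in the round-zone array, against 52.5% of all such genes, and 6 were at least 2-fold higher, against 5.46%, with a median of -0.74. Within clusters the median was -0.64 over 7 *Hoxa* genes, -0.93 over 6 *Hoxc* genes and, as the bound of *Hoxd10*, at or below -1.26 over 3 *Hoxd* genes, and the 2 *Hoxb* genes compared lay at -0.01 and 0.97. Every compared *Hoxc* and *Hoxd* gene was on the round side, under median centring, quantile normalization and lowess centring too. Under lowess centring at least 2-fold differences were found in 4.72% of all genes on the round side and in 5.28% on the columnar side, and the HOX genes gave 7 and 1. In bulk sections, fewer cells that express a gene cannot be told apart from less RNA per cell.

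Within paralogue groups the members of different clusters could be set side by side. In group 9, *Hoxd9* lay at -1.92, *Hoxc9* at -1.01 and *Hoxa9* at -0.98, with *Hoxb9* under the floor at 42.2 and 7.29. In group 10, *Hoxa10* lay at -1.58, *Hoxd10* at or below -1.26 and *Hoxc10* at -0.85. In both groups every compared member was on the round side and the *Hoxc* member lay closer to 0 than the *Hoxd* member. Since the value of *Hoxd10* is a bound, *Hoxa10* and *Hoxd10* have no order. In group 11, *Hoxa11* was compared while *Hoxd11* stayed under the floor at 7.16 and 13.6. In group 8, *Hoxc8* lay at -1.48 and *Hoxd8* at -0.74, although the second *Hoxd8* probe set, at -1.84, would reverse their order. In group 4, *Hoxc4* was 678 and 225 whereas *Hoxa4* was 6.37 and 32.2 and *Hoxb4* 4.19 and 56.2, all 4 under the floor. Among all genes compared, 1.18% had a lower difference than *Hoxd9*, 1.51% than *Hoxa11* and 2.08% than *Hoxc4*, and 95.5% had a lower one than *Hoxb2*. In the RefSeq table the extents of *Hoxd10* and *Hoxd11*, of *Hoxd3* and *Hoxd4*, and of *Hoxb3* and *Hoxb4* overlap.

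**Figure D2:**
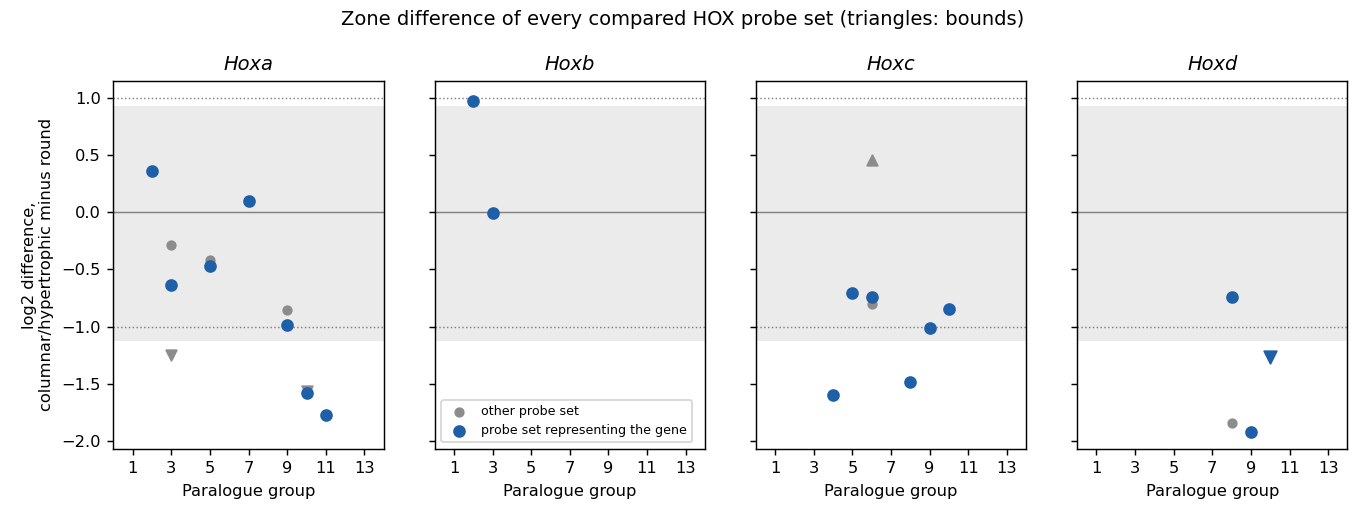
Log2 difference, columnar-zone minus round, of the 26 compared HOX probe sets by cluster and paralogue group. Large dark symbols are the probe sets that represent a gene, grey ones the other probe sets, triangles are bounds with 1 signal under the floor, dotted lines mark 2-fold, and the grey band holds the central 90% of all genes compared. Of the 26 probe sets, 22 lie under 0, the symbols of *Hoxa10*, *Hoxa11*, *Hoxc4*, *Hoxc8*, *Hoxd9* and *Hoxd10* that represent the genes lie under the band, and that of *Hoxb2* lies above it.

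Transcripts that share the HOX clusters were examined from a list of 20 genes, of which 13 were measured. The 3 antisense RNA genes measured all had higher signals in the round-zone array, where 53.2% of all genes compared did. *Hoxa11os*, transcribed opposite to *Hoxa11*, had signals of 289 in the round zone and 87.2 in the columnar-zone array, 3.31-fold apart, close to the 3.42-fold of *Hoxa11* itself. Its second probe set was under the floor in both arrays. *Hoxd3os1* had a signal of 371 in the round-zone array and lay under the floor at 18.5 in the other, at least 5.63-fold higher in the round-zone array, whereas *Hoxd3* was under the floor in both. Its second probe set was also under the floor. *Hoxb5os* had signals of 133 and 77.8 (-0.78), although *Hoxb5* and *Hoxb6* were under the floor.

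The protein-coding genes that flank the clusters in the RefSeq table showed no common direction. *Skap2*, an adaptor protein gene that flanks the *Hoxa* cluster, had signals of 221 in the round zone and 748 in the columnar-zone array, 3.38-fold apart (log2 difference 1.76), and its 3 probe sets were all on that side, from 0.82, a bound, to 1.76. *Hibadh*, beyond *Evx1*, had signals of 2884 and 2522 (-0.19). Next to *Hoxd1*, the mitochondrial import gene *Mtx2* had signals of 579 and 693 (0.26). *Lnpk*, beyond *Evx2*, had signals of 673 and 699 (0.05) on its brightest probe set and log2 differences of -0.56 and -0.68 on the other 2. *Smug1*, a DNA repair gene next to *Hoxc4*, had signals of 367 and 508 (0.47), and *Calcoco1*, next to *Hoxc13*, had 280 and 198 (-0.50). The homeobox gene *Evx1* was under the floor in both arrays, and *Evx2* lay at 89.9 and 61.3, the latter under the floor. Of all 11 genes of this list compared, 2 were at least 2-fold higher in the round-zone array, against 6.25% of all genes, and 1 in the columnar-zone array, against 4.28%.

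HOX proteins bind DNA together with the TALE homeodomain proteins of the PBX, MEIS and PREP families. Of 8 such genes measured, 6 were compared, 4 of them with higher signals in the round-zone array (66.7%, against 53.2% of all genes) and 2 at least 2-fold (33.3%, against 6.25%), with a median log2 difference of -0.46. *Meis2* had signals of 230 and 93.9 in the round-zone and columnar-zone arrays, and all 4 of its probe sets lay on the round side, between -1.54 and -0.76 in log2 difference, the last a bound. *Pknox2* had a signal of 185 on its brighter probe set and lay under the floor at 21.3, a bound of at least 2.81-fold. Its second probe set gave 120 and 64.0, the latter just under the floor, a bound of only 1.82-fold. Of the 2 genes past 2-fold, only *Meis2* was above the floor in both arrays. *Meis1* had signals of 332 and 224 (-0.57) on its brightest probe set, -1.04 on another and 0.40 on the last, near the floor. *Pbx3* went the other way, with signals of 512 and 792 (0.63). *Pbx2* gave -0.36 on its brightest probe set and -1.13 and -0.89 on the others.

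HOX expression is kept off by Polycomb complexes and kept on by trithorax complexes. All 15 Polycomb genes measured were above the floor in the round-zone array. Of these, 13 had higher signals there than in the columnar-zone array (86.7%, against 53.2% of all genes). None of the 14 above the floor in both arrays differed by 2-fold, and neither did 10125 of all 11163 such genes. *Cbx7*, with signals of 101 and 27.1, the latter under the floor, was at least 1.54-fold higher in the round-zone array. Among the 14, the largest differences were those of *Bmi1*, a subunit of the ubiquitin ligase complex, with signals of 1034 and 615 (-0.75), and *Cbx2*, a reader of the Polycomb mark, with 257 and 162 (-0.67). *Ezh2*, the histone methyltransferase gene, had signals of 1931 and 1480 (-0.38). The median was -0.38. The 9 trithorax and other maintenance genes had a median of -0.08, which turned its sign under median centring. On the round side were 5 (55.6%, against 53.2% of all genes), and none was 2-fold apart. *Kmt2a*, the methyltransferase gene that keeps HOX genes active, had signals of 1091 and 718 (-0.60).

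Genes of limb identity were read beside the HOX genes. *Pitx1*, which specifies the hindlimb, had signals of 1936 and 827 in the round-zone and columnar-zone arrays (-1.23), and its second probe set gave -1.15. *Tbx4*, the hindlimb T-box gene, had signals of 2988 and 149 (log2 difference -4.32), and its second probe set gave 602 and 45.8, the latter under the floor. *Tbx5*, best known as the forelimb gene, was also above the floor in the round-zone array, at 511 and 225 on its 2 probe sets, and under it at 13.4 and 5.04 in the columnar-zone array. *Shox2*, a homeobox gene of the proximal limb segment, had signals of 8209 and 6950 (-0.24) and did not reach 2-fold. *Isl1* was under the floor in both arrays.

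Among the markers of other cells, those of perichondrium, tendon and fibroblasts moved in the direction of most HOX genes. The muscle, myeloid and osteoblast lists had higher sums in the columnar-zone array. Of 14 genes of perichondrium, tendon and fibroblasts, all were above the floor in the round-zone array and 12 in the other. The round-zone signal was the higher in 13, against 53.2% of all genes compared. At least 2-fold higher there were 10, against 6.25%. The median log2 difference was at or below -1.67, as 2 of the values are bounds. The summed signals of these 14 genes were 120387 in the round zone and 48771 in the columnar-zone array, a ratio of 2.47. Those of the 33 HOX genes were 18809 and 8990, a ratio of 2.09. Bright probe sets weigh most in such sums, so the 2 ratios cannot be read as alike. *Lum*, the 1 marker of this list higher in the columnar-zone array, had signals of 21458 and 22176. The defining tendon gene *Scx* had signals of 79.2 and 6.03, the latter under the floor, whereas *Prrx1*, a limb mesenchyme gene, had signals of 335 and 90.3. Their part in the HOX differences was not tested. Of 8 muscle genes 3 and 5 were above the floor in the round-zone and columnar-zone arrays, with sums of 968 and 1502, and *Myod1* was under it in both. Of 6 endothelial genes 3 and 2 were above it, with sums of 334 and 279, and *Tek* and *Tie1* were under it in both. Of 7 myeloid and osteoclast genes 4 and 3 were above it, with sums of 1615 and 1820, and *Ptprc* was under it in both. Of 3 erythroid genes 1 and 0 were above it, and of 4 osteoblast genes 2 and 4, with sums of 263 and 1868 for the latter list. The 7 cartilage genes had a median of 0.01, and *Sox9*, the chondrocyte master regulator gene, had signals of 8371 and 8034.

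**Figure D3:**
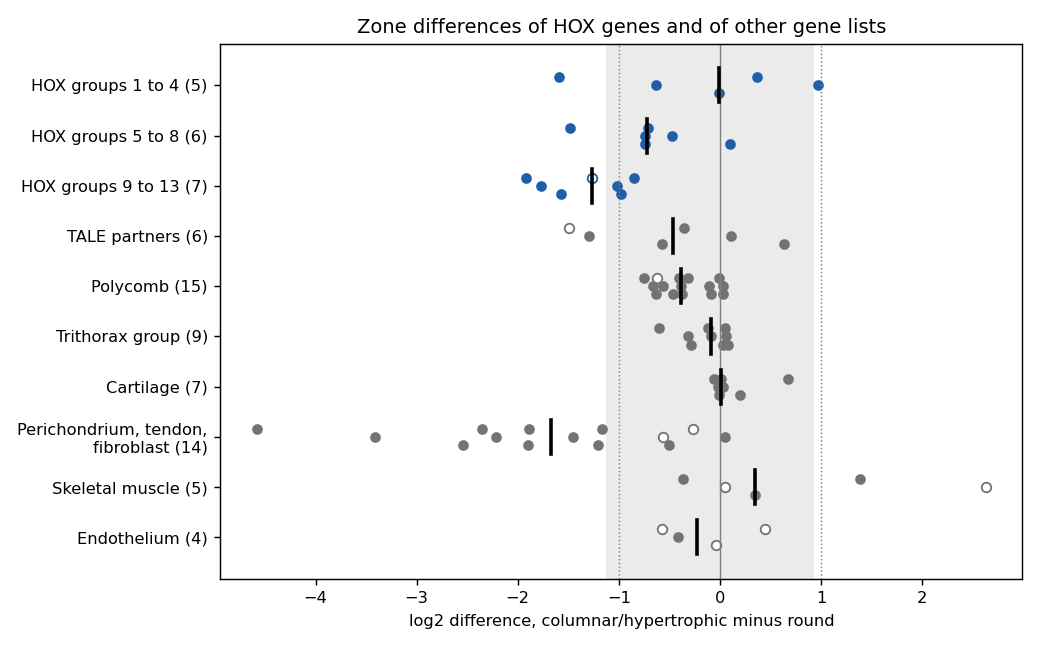
Log2 difference, columnar-zone minus round, of each compared gene in the HOX paralogue classes and in other gene lists, with the number compared in parentheses. Filled circles are measured in both arrays, open circles are bounds, black bars are medians, dotted lines mark 2-fold, and the grey band holds the central 90% of all genes compared. The medians as drawn are -0.01, -0.72 and -1.26 in the 3 HOX classes, -1.67 in perichondrium, tendon and fibroblast genes and 0.01 in cartilage genes, where -1.26 and -1.67 are upper limits because of bounds.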

How the data were processed

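Per the labels, biotin-labelled cRNA was hybridized to Affymetrix mouse genome arrays. The authors deposited probe set intensities on a linear scale, and the submitters' processing notes name MAS5 without a version, while the methods name robust multiarray averaging for heatmaps. The intensities were used as deposited. Groups came from the sample titles, 1 array each, so no test was run, and this number limits the precision. Of 45037 probe sets, 34945 were annotated to 1 gene, 932 to several and 9160 were unnamed here. Entrez identifiers changed 0 symbols. Signals were floored at the 40th percentile of both arrays, and a gene took its probe set with the highest mean floored log2 signal. A pair under the floor was not compared, and a signal under it on a single side gave a bound. Medians needed at least 3 compared genes. Members, gene lists and rules were chosen with earlier results of these data known. HOX genes above the floor in at least 1 array are named with values, and of the lists of partners, regulators, cluster neighbours and limb identity, members at least 2-fold apart or up to the 4 with the largest difference. Other genes named from these lists, and the cell markers named, were picked with their values in view, and marker lists are given by counts and sums.

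The alternatives tried were median centring, quantile normalization, lowess centring, a lower and a higher floor (20th and 60th percentile) or none, probe sets averaged per gene, only specific ones, a 3-fold rule, and counts by probe set. After seeing the data, a gene was also counted as detected by any probe set, and comparison was limited to genes above the floor in both arrays. On simulated data only the recovery of planted differences in bright probe sets was tested, as deposited and under median and lowess centring. The other steps were not tested in this way. RefSeq tables (GRCm38.p6) gave neighbours and start-site windows, but no position of any probe. Values were computed in Python 3.11.15 with pandas 2.3.3 and numpy 2.4.6, lowess with statsmodels 0.14.6, and plots with matplotlib 3.10.9.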

Additional observations from a re-analysis of the deposited data

How the results depend on the processing

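No paired analysis was possible because a single array stood for each zone and nothing was tested. The precision of every difference is limited by this, and the floor leaves 15 of 33 HOX genes uncompared. Of the counts and medians of the main comparisons, 118 alternative values stayed within 1.5 times the count or within the SD of 0.34 and 10 moved, and for single HOX genes and the median of all genes the numbers were 158 and 7. HOX genes past 2-fold on the round side numbered 3 with a 3-fold rule and 11 with no floor, both by construction. Those at least 2-fold higher in the columnar-zone array numbered 1 under median centring, quantile normalization and lowess centring (*Hoxb2*) and 1 under a 20th percentile floor (*Hoxb4*), and 3 with no floor (*Hoxa4*, *Hoxb4* and *Hoxd12*). The *Hoxa* median was -0.98 at the 60th percentile floor, and the *Hoxd* median was -0.36 at the 20th percentile floor and -0.42 without a floor, where genes under the main floor enter. *Hoxd10* moved to -2.80 and -2.84 under these last settings, *Hoxb2* to 0.01 and *Hoxa3* to -0.27 under a 60th percentile floor, *Hoxd8* to -1.29 and *Hoxc6* to -0.36 with the mean over probe sets, and *Hoxa3* to -0.29 on specific probe sets. *Hoxa10*, *Hoxa11*, *Hoxc4*, *Hoxc8* and *Hoxd9* were at least 2-fold higher in the round-zone array in the main setting and under each scaling, floor and probe set alternative. The share of all 2-fold calls on the columnar-zone side was 40.6% as deposited and 52.8% after lowess centring. The causes of the scaling differences were not tested.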

Other observations

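Probe sets assigned to several HOX genes were left out of the members. The 1 probe set shared by *Hoxb7* and *Hoxb8* had signals of 3.08 and 1.26 in the round-zone and columnar-zone arrays, both under the floor. The 2 shared by *Hoxd3* and *Hoxd4* had signals of 38.0 and 61.1, both under the floor, and of 73.3 in the round-zone array and 2.37 in the columnar-zone array.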
